A study of Mus musculus with 11 samples.

Results

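Transcripts of potassium, sodium and calcium channel subunits were described in uninjured and injured heart regions of 2 mouse strains. Members were all genes of the expression table whose symbol begins with Kcn, with Scn and a digit, with Cacn, or with Hcn and a digit, and 94 of 15274 genes met this rule. Of these 61 were Kcn, 10 Scn, 20 Cacn and 3 Hcn genes. Kcnq1ot1 and Kcnd3os, 2 noncoding RNAs that carry the name of a channel gene, also met the rule, as did Kcnrg, which encodes a regulator of Kv channels. By their known roles 33 members were listed as channels of the cardiac action potential, 6 as channels of leukocytes and 6 as channels of vascular smooth muscle, and the other 49 were kept apart. The lists were drawn up with earlier results of these data known, so values of a list beside those of all genes are description only.

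RNA was sequenced from hearts of C3H/HeJ (C3H) and C57BL/6J (B6) mice aged 8 weeks, with library titles that name day 7. The 4 groups were C3H injured (n = 2), C3H uninjured (n = 3), B6 injured (n = 3) and B6 uninjured (n = 3), and the 11 libraries came from 6 animals. Both regions were taken from the same heart in 5 of these animals, and C3H animal 3 gave an uninjured region only. No transgene or drug is named for any group, and the sources used here do not give the way of injury or how regions were cut. C3H mice are inbred and known to be prone to cardiac calcification.

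In a cardiac myocyte, sodium channels carry the upstroke of the action potential, L-type calcium channels admit the calcium that starts contraction, and a succession of potassium channels repolarises the membrane. Many of these channels join pore-forming alpha subunits with beta, KChIP or KCNE subunits that set their traffic and gating. Mouse ventricle repolarises mainly through a fast transient outward current and sustained Kv currents, whereas macrophages and lymphocytes use calcium-activated, Kv1.3 and 2-pore potassium channels to hold their membrane potential.

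Reads per library that fell in genes ranged from 9699985, in B6 uninjured library 2, to 22138459, in C3H uninjured library 3. Values are normalised counts, that is, reads divided by 1 size factor per library. Changes are log2 fold changes of (normalised count + 1), injured over uninjured or C3H over B6, with their standard error (SE), and a gene passed the test at an adjusted p under 0.05 in limma over 14751 genes. Of the 94 members 87 had enough counts to be tested, and Cacna1b, Cacna1e, Cacna1f, Cacng2, Kcnc4, Kcnq3 and Kcns1 were not tested. Xist was between 1840 and 8478 in the C3H libraries and at most 12.2 in the B6 libraries, and Y-linked genes showed the reverse, so that strain and sex cannot be told apart. The heart label matched the markers, with a sum of 11 cardiomyocyte genes of at least 564382 normalised counts in every library, and of the atrial markers the light chain genes Myl7 and Myl4 reached at most 24.9 and 131. The third atrial marker in the table, Nppa, for atrial natriuretic peptide, which stressed ventricle also makes, was high: it had 52736 and 51908 normalised counts in C3H injured, 10416, 69974 and 16226 in C3H uninjured, 21258, 27047 and 8439 in B6 injured and 8007, 2893 and 3403 in B6 uninjured libraries. Its B6 groups do not overlap and its C3H groups do, and its change passed in neither strain. In bulk RNA, fewer cells of a type and less RNA per cell cannot be told apart.

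Per kilobase of exon, the potassium channel genes Kcnk3, Kcnip2 and Kcng2 were the most abundant members in uninjured regions of both strains. Kcnk3, which encodes the 2-pore background channel TASK-1, averaged 1745 normalised counts per kb in C3H and 1046 in B6. Kcnip2, which encodes the transient outward current subunit KChIP2, stood at 1412 per kb in C3H and 781 in B6. Kcng2, whose silent alpha subunit Kv6.2 forms channels only with other Kv subunits, stood at 1293 and 976 per kb. The ATP-sensitive channel gene Kcnj11 (Kir6.2) stood at 539 per kb in C3H and 689 per kb in B6, and its vascular relative Kcnj8 (Kir6.1) at 468 and 528. Lengths are exon unions of a later annotation than the one used for counting, so these levels are approximate.

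The comparison of injured with uninjured C3H regions asked which channel transcripts differ at the injured site of that strain. Several repolarising potassium channel genes of the myocyte were lower in injured C3H regions, and several potassium channel genes of leukocytes were higher. Kcnip2, Kcne1, Kcng2 and Kcnk3 were among the members that fell, and Kcnma1, Kcnj15 and Kcnn4 had the largest increases. Of the 87 members tested, 36 passed, which is to be read against 30.7% of all genes tested. Of these 16 were higher (15.3% of all genes) and 20 were lower (15.4% of all genes). The 16 include Kcna3, which had enough counts to be tested only through the C3H injured libraries. Injured libraries lay above all uninjured ones for 21 members (29.6% of all genes) and below them for 27 (29.7%). With quantile normalisation, which moved the median of all genes to -0.11 from 0.01, the split was 11 higher (13.6% of all genes) and 25 lower (17.9%). With only 2 injured libraries the count rested in large part on C3H injured library 2: without it 16 members passed (11.6% of all genes), 6 higher and 10 lower, and all 16 were among the 36.

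The cardiac list as a whole was shifted down in injured C3H regions. Of its 33 genes 28 had a change below 0, against 49.4% of all genes tested, and the median change was -0.95 against 0.01 for all genes. In this list 14 fell, 2 rose and 17 did not pass, where 15.4% of all genes fell and 15.3% rose. The cardiomyocyte markers moved with this list: 9 of 11 fell (7 with the animal as a fixed block), and their median change was -1.43. Their summed level was 564382 to 595897 normalised counts in C3H injured libraries against 1632830 to 1944220 in C3H uninjured libraries. Their part in the channel changes was not tested.

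**Figure D1:**
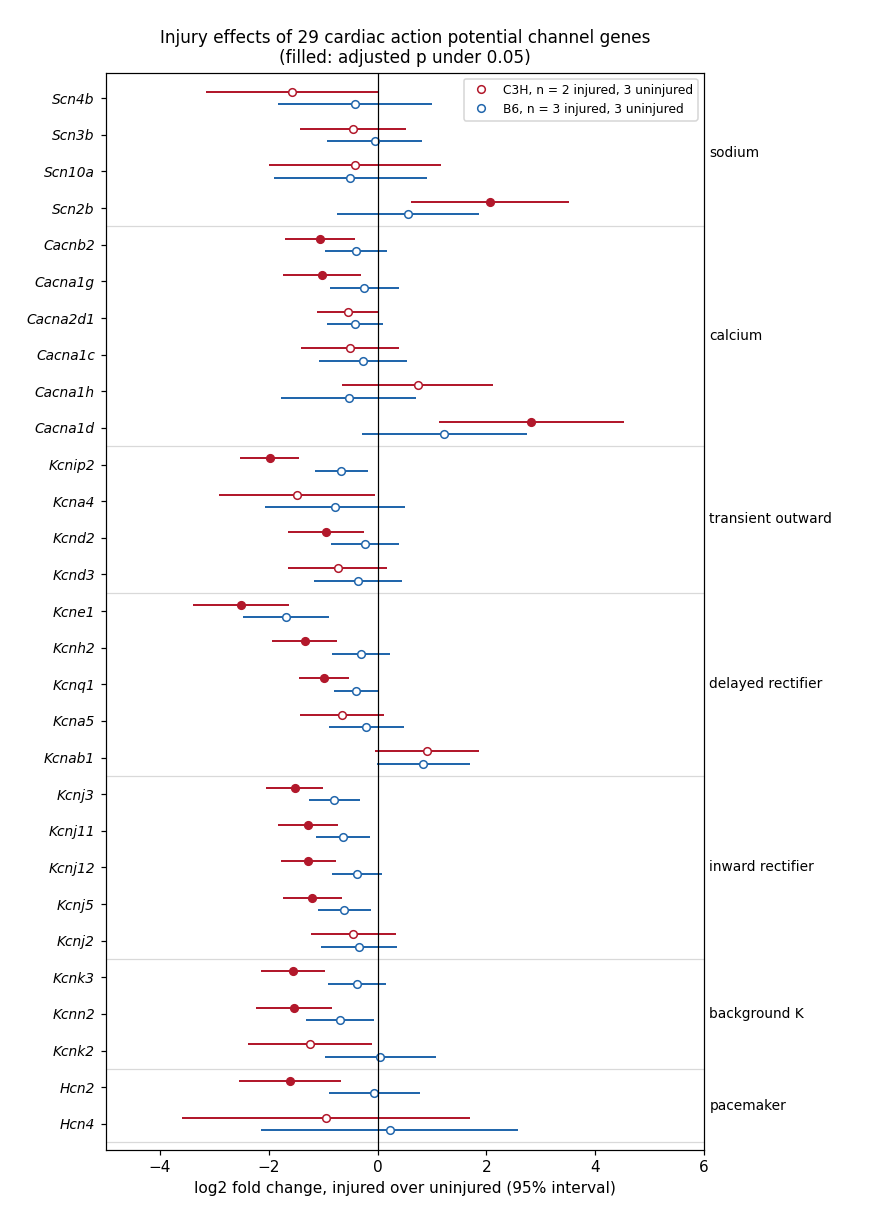
Log2 fold change, injured over uninjured, of 29 of the 33 genes of the cardiac list by current, with C3H (red) above B6 (blue) for each gene; bars are 95% intervals and filled points have an adjusted p under 0.05. The filled points are C3H ones: 14 lie below 0, and Scn2b and Cacna1d above it.

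Of the 4 transient outward current genes 2 fell in injured C3H regions, against 15.4% of all genes. Kcnip2 had 1467 and 1032 normalised counts in C3H injured libraries and 4435, 4487 and 5803 in C3H uninjured libraries, groups that lie far apart. It fell, with a log2 fold change of -1.98 (SE 0.24, adjusted p = 0.000212). Kcnd2, which encodes the pore-forming subunit Kv4.2 that KChIP2 binds, had 297 and 245 in C3H injured and 526, 466 and 573 in C3H uninjured libraries, again with no overlap, and changed by -0.94 (SE 0.31, adjusted p = 0.0382). Its call was lost without B6 injured library 2 (0.0553), C3H injured library 1 (0.0903), C3H injured library 2 (0.216), C3H uninjured library 1 (0.0648), C3H uninjured library 2 (0.0508) or C3H uninjured library 3 (0.103), where the bracketed values are adjusted p. Kcnd3, for the related pore subunit Kv4.3, had 157 and 124 in C3H injured and 355, 242 and 146 in C3H uninjured libraries. These groups overlap, and the change of -0.73 did not pass (adjusted p = 0.193) unless the animal was a block (adjusted p = 0.0108 as a fixed and 0.0426 as a random term). Reads of Kcnd3 and the overlapping noncoding RNA Kcnd3os cannot be told apart where strand was not used. Kcna4, for Kv1.4 of the slow transient outward current, held 13 reads in all over the C3H injured and 57 over the C3H uninjured libraries.

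Of the 5 inward rectifier genes of the cardiac list 4 fell in injured C3H regions, against 15.4% of all genes. Of the inward rectifier genes outside this list that passed, Kcnj15 and Kcnj10 were higher and Kcnj8 and Kcnj14 were lower. Kcnj3, which encodes the acetylcholine-activated channel subunit Kir3.1 (GIRK1), had 425 and 329 normalised counts in C3H injured libraries and 1209, 1003 and 1024 in C3H uninjured libraries. Its partner gene Kcnj5 (Kir3.4) had 662 and 629 in C3H injured and 1639, 1529.5 and 1296 in C3H uninjured libraries. Neither gene's groups overlapped, and the changes were -1.52 (SE 0.23, adjusted p = 0.000793) for Kcnj3 and -1.20 (SE 0.24, adjusted p = 0.00343) for Kcnj5. Kcnj11, the pore of the myocyte ATP-sensitive channel, had 719 and 907 in C3H injured and 1987, 2283 and 1676 in C3H uninjured libraries and changed by -1.28 (SE 0.24, adjusted p = 0.00267). Kcnj12 (Kir2.2), which contributes to the resting inward rectifier current, had 239 and 225 against 680, 533 and 492 and changed by -1.28 (SE 0.22, adjusted p = 0.00178). Kcnj2 (Kir2.1), the main gene of that current in mouse ventricle, did not pass: its values were 709 and 620 in C3H injured and 1378, 686 and 780 in C3H uninjured libraries, which overlap, with a change of -0.45 (95% interval -1.21 to 0.31, adjusted p = 0.353).

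The promoters of the fallen genes Kcnip2 and Kcnj3 are shown because both calls held without each library in turn, the first for an abundant transient outward subunit and the second for an inward rectifier. Both are the 250 bases before the start of the RefSeq transcript in build GRCm38.p6, read on the gene's strand, at chr19:45816064-45816313 on the minus strand for Kcnip2 and chr2:55435720-55435969 on the plus strand for Kcnj3. Capitals mark the match to the T-box motif AGGTGTG, here on the opposite strand.
Kcnip2: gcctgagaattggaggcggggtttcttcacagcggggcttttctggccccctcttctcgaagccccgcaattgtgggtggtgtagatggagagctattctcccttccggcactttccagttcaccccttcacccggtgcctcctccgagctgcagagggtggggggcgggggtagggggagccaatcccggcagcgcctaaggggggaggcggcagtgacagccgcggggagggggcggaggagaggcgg
Kcnj3: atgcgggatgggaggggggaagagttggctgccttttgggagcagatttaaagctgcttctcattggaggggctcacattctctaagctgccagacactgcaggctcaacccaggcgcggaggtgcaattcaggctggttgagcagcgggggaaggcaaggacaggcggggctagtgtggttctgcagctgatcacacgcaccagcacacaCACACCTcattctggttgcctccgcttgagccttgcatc
In Kcnj3 the match begins 39 bases before the start, and the Kcnip2 promoter holds no match to the motifs searched.

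The background channel genes Kcnk3 and Kcnk2 were listed with the calcium-activated channel gene Kcnn2, and of these 3 genes 2 fell, against 15.4% of all genes. Kcnk3 had 2727 and 2015 normalised counts in C3H injured libraries and 8163, 5828 and 6818 in C3H uninjured libraries, with no overlap, and fell, with a change of -1.55 (SE 0.26, adjusted p = 0.00148). Reads of Kcnk3 cannot be told apart from those of the overlapping predicted gene Gm9899 if strand was not used. Kcnn2, for the small-conductance calcium-activated channel SK2, had 47.6 and 31.1 in C3H injured and 116, 103 and 123 in C3H uninjured libraries and changed by -1.53 (SE 0.31, adjusted p = 0.00376), a call that was lost without C3H injured library 2 (0.0597). Kcnk2, for the stretch-sensitive channel TREK-1, had 82.1 and 38.2 against 195, 57.6 and 215, where C3H uninjured library 2 lies between the injured ones, and its change of -1.25 did not pass (adjusted p = 0.0862, and 0.0367 with the animal as a random block).

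Among delayed rectifier genes, Kcne1 had the largest decrease of the cardiac list. It encodes the beta subunit minK of the slow delayed rectifier and had 82.1 and 51.6 normalised counts in C3H injured libraries and 312, 341 and 506 in C3H uninjured libraries, a change of -2.52 (SE 0.40, adjusted p = 0.000975). The pore gene of the same channel, Kcnq1, had 646 and 491 in C3H injured and 1034, 1122 and 1199 in C3H uninjured libraries and changed by -0.99 (SE 0.20, adjusted p = 0.00359). Its call was lost without C3H injured library 2 (0.0651), and its reads may include those of the overlapping noncoding RNA Kcnq1ot1. Kcnh2, the ERG pore of the rapid delayed rectifier, had 765 and 724 against 2253, 1562 and 1899 and changed by -1.34 (SE 0.27, adjusted p = 0.00322). The groups of Kcne1, Kcnq1 and Kcnh2 did not overlap. Kcna5, for Kv1.5 of the sustained outward current in mouse myocytes, had overlapping groups and did not pass, with a change of -0.65 (95% interval -1.40 to 0.10, adjusted p = 0.171). With the animal as a block the adjusted p of Kcna5 was 0.0168 (fixed) and 0.0395 (random). Kcng2, for the silent subunit Kv6.2 and outside the cardiac list, had 1346 and 1088 in C3H injured and 3814, 3088 and 4688 in C3H uninjured libraries and changed by -1.65 (SE 0.25, adjusted p = 0.000756).

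**Figure D2:**
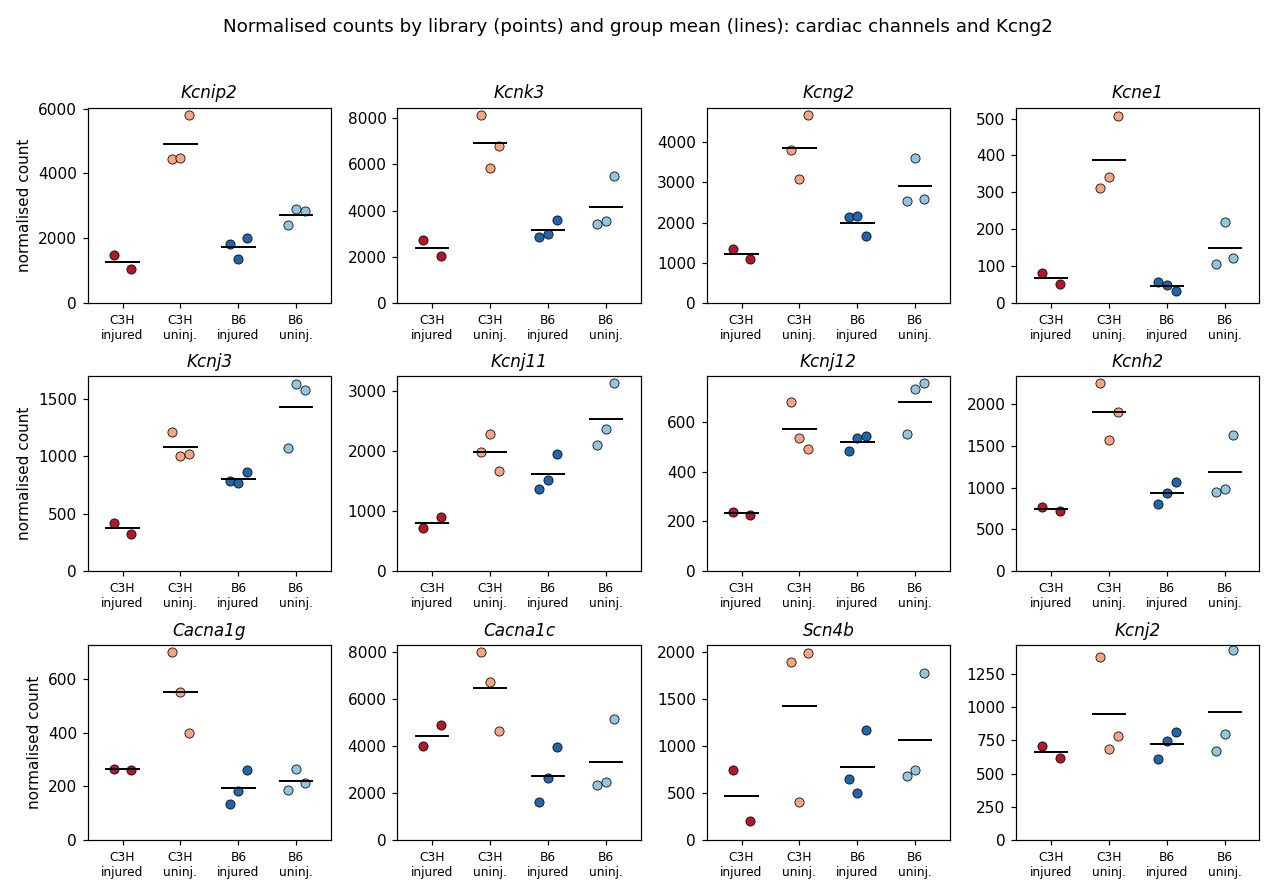
Normalised counts (y axis, linear, from 0) of 11 cardiac channel genes and Kcng2 in each library, with the groups C3H injured, C3H uninjured, B6 injured and B6 uninjured from left to right; lines are group means. For Kcnip2 the C3H injured libraries sit at 1467 and 1032, below all C3H uninjured libraries, whereas for Cacna1c and Kcnj2 the points of the groups interleave.

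Calcium channel genes changed in both directions. Cacna1c, which encodes the main L-type pore Cav1.2 of the ventricle, had 4000.2 and 4889.9 normalised counts in C3H injured libraries and 8009.5, 6733 and 4667 in C3H uninjured libraries. Its groups overlap, and its change of -0.51 (95% interval -1.40 to 0.37, adjusted p = 0.359) passed only with the animal as a fixed block (-0.73, adjusted p = 0.0359). The accessory subunit gene Cacnb2 was lower, with 841 and 512 in C3H injured and 1553, 1075 and 1503 in C3H uninjured libraries and a change of -1.05 (SE 0.29, adjusted p = 0.0165). Without C3H injured library 2 it was -0.69, and its call was lost without C3H injured library 2 (0.203) or C3H uninjured library 3 (0.0545). Cacna2d1, for the alpha-2-delta subunit, had 2705 and 2389 against 4100.3, 3704 and 3383, which do not overlap, and a change of -0.55 that passed only with the animal as a random block (adjusted p = 0.0360 with it and 0.117 without).

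The T-type gene Cacna1g (Cav3.1) had 266 and 261 in C3H injured and 701, 552 and 400 in C3H uninjured libraries and changed by -1.02 (SE 0.32, adjusted p = 0.0293), a call lost without C3H injured library 1 (0.113), C3H injured library 2 (0.141), C3H uninjured library 1 (0.0807) or C3H uninjured library 2 (0.0610). Cacna1d, for the L-type pore Cav1.3 of nodal and atrial cells, was higher, with 176 and 649 against 70.3, 41.9 and 34.6 and a change of 2.83 (SE 0.77, adjusted p = 0.0166). Its C3H injured libraries differed widely: without library 2 the change was 1.89, and the call was lost without C3H injured library 2 (0.198) or C3H uninjured library 3 (0.0542). In the later annotation its exons overlap those of Chdh.

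Of the 6 sodium channel genes of the cardiac list 1 passed in C3H, against 30.7% of all genes. Scn4b, for the beta-4 subunit, had 745 and 202 normalised counts in C3H injured libraries and 1890.2, 409 and 1987 in C3H uninjured libraries, where C3H uninjured library 2 was far below the other uninjured libraries. Its change of -1.57 had adjusted p = 0.117, and passed with the animal as a fixed (-1.18, adjusted p = 0.00274) or random block (-1.42, adjusted p = 0.0393). In the same animals injured over uninjured was 745 over 1890 (animal 1) and 202 over 409 (animal 2). Scn2b, for the beta-2 subunit, rose at a low level, with 64.9 and 70.7 in C3H injured and 31.7, 11.5 and 9.77 in C3H uninjured libraries and a change of 2.07 (SE 0.66, adjusted p = 0.0332). It did not pass with the animal as a fixed block (1.76, adjusted p = 0.0718), nor without C3H injured library 1 (0.129), C3H injured library 2 (0.170), C3H uninjured library 2 (0.0821) or C3H uninjured library 3 (0.104). Scn10a (Nav1.8) had at most 123 normalised counts in any library and did not pass.

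Of the pacemaker channel genes, Hcn2 fell. It had 266 and 158 normalised counts in C3H injured libraries and 824, 389 and 779 in C3H uninjured libraries, with no overlap, and changed by -1.61 (SE 0.42, adjusted p = 0.0135). Without C3H injured library 2 (0.147) it did not pass. Hcn4, the main nodal isoform, was low, with 39.8 and 26.9 in C3H injured libraries against 193, 32.5 and 41.7 in C3H uninjured libraries. Its groups overlap, and the change did not pass (adjusted p = 0.577).

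Leukocyte channel genes were higher in injured C3H regions in 5 of 6 cases, against 15.3% of all genes, with a median change of 2.67. Among the 5, Kcna3 had enough counts to be tested only through the C3H injured libraries, so its call adds no support. Kcnn4, which encodes the intermediate-conductance calcium-activated channel KCa3.1 of lymphocytes and macrophages, had 604 and 682 normalised counts in C3H injured libraries and 49.5, 12.6 and 28.4 in C3H uninjured libraries, and rose by 4.56 (SE 0.50, adjusted p = 0.000111). Kcnk13, for the 2-pore channel THIK-1 known from microglia, had 174 and 341 in C3H injured and 27.7, 54.4 and 28.4 in C3H uninjured libraries and rose by 2.76 (SE 0.39, adjusted p = 0.000487). Kcnab2, for the beta-2 subunit of Kv1 channels, had 540 and 818 against 124, 101 and 108 and rose by 2.58 (SE 0.31, adjusted p = 0.000184). For these 3 genes every C3H injured library lay above every C3H uninjured library.

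Kcnk6, for the 2-pore channel TWIK-2 of macrophages, had 300 and 727 normalised counts in C3H injured and 142, 124 and 97.7 in C3H uninjured libraries and changed by 1.96 (SE 0.41, adjusted p = 0.00409), a call lost without C3H injured library 2 (0.0762). Kcna3, for the lymphocyte channel Kv1.3, was rare, with 48 reads over the C3H injured and 8 over the C3H uninjured libraries, and its call was lost with edgeR (adjusted p = 0.0760), DESeq2 (0.161), quantile normalisation (0.0721) and the animal as a fixed block (0.153), with a smaller pseudocount, in a fit of the C3H libraries alone and without several single libraries. Kcnk5 (TASK-2) had at most 29.7 normalised counts in any library and did not pass. The macrophage markers moved with this list: 10 of 11 rose in C3H, against 15.3% of all genes (11 with the animal as a block). Their median change was 2.80, and their sum was 78528 to 136960 normalised counts in C3H injured libraries against 14210 to 24443 in C3H uninjured libraries. T cell markers summed to 131 to 146 in C3H injured against 50.5 to 87.0 in C3H uninjured libraries, with a median change of 0.81. How far these cells account for the channel values was not tested.

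**Figure D3:**
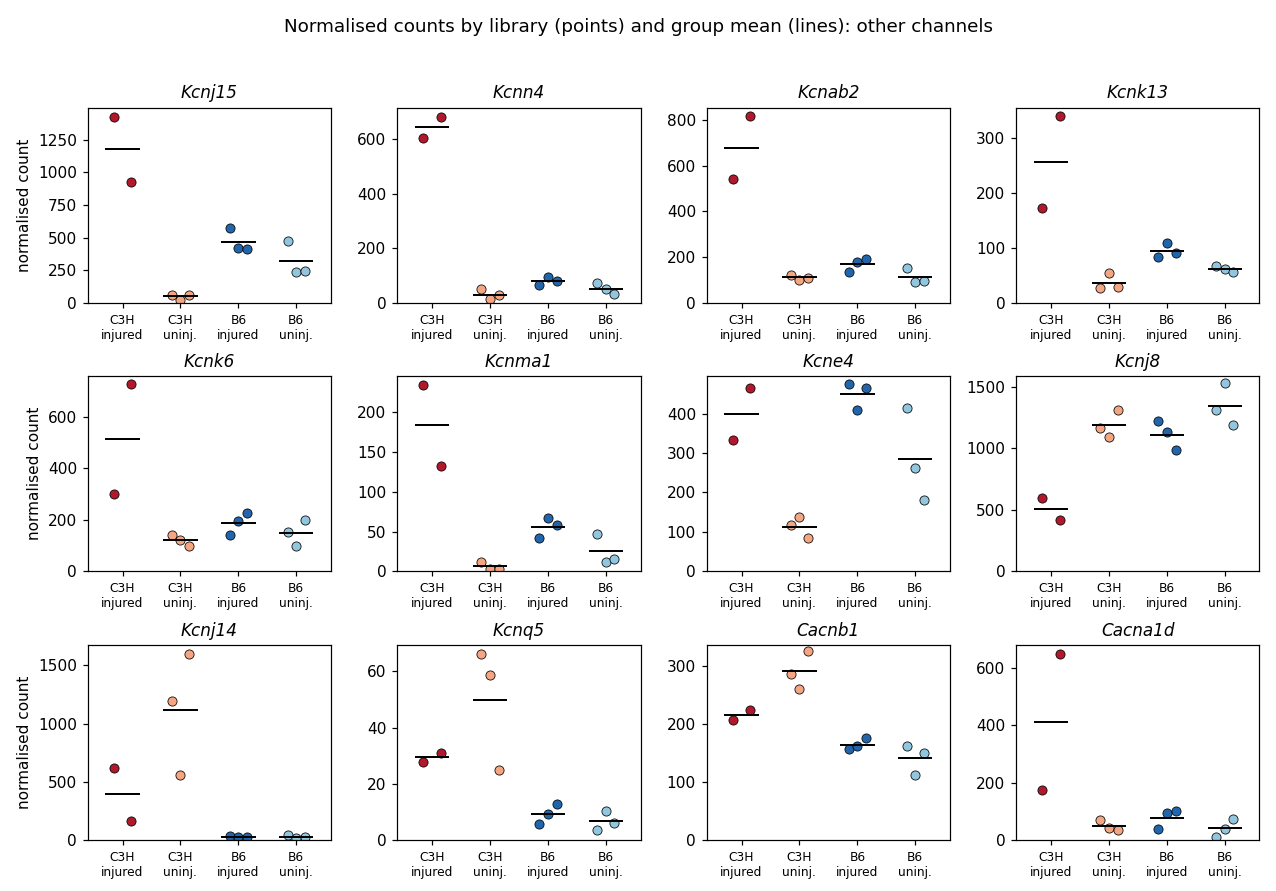
Normalised counts (y axis, linear, from 0) of 12 channel genes, all outside the cardiac list but for Cacna1d, in each library. The groups are C3H injured, C3H uninjured, B6 injured and B6 uninjured from left to right, and lines are group means. Kcnn4 stands at 604 and 682 in C3H injured libraries and under 100 in all others, and Kcnj14 is at most 39.0 in B6 and at least 165 in C3H.

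Smooth muscle channel genes did not move one way. Kcnma1, the pore of the large-conductance calcium-activated BK channel, had 233 and 133 normalised counts in C3H injured libraries and 11.9, 3.14 and 3.55 in C3H uninjured libraries, and rose by 4.83 (SE 0.64, adjusted p = 0.000341). Its beta-1 subunit gene Kcnmb1 had 39.8 and 26.9 against 43.6, 32.5 and 38.2, which overlap, with a change of -0.20 (95% interval -1.11 to 0.70, adjusted p = 0.737). Kcne4, a KCNE beta subunit that inhibits several Kv channels, had 332 and 466 in C3H injured and 117, 137 and 85.2 in C3H uninjured libraries and rose by 1.82 (SE 0.34, adjusted p = 0.00237). Kcnj8, the Kir6.1 pore of vascular smooth muscle and pericytes, had 598 and 421 against 1167, 1095 and 1312, with no overlap, and fell, with a change of -1.24 (SE 0.22, adjusted p = 0.00178). Kcnq5 of the Kv7 family did not pass (adjusted p = 0.439). Mural cell markers rose in 2 of 8 cases, against 15.3% of all genes (4 with the animal as a block), with a median change of 0.81. Their sum was 13037 to 21332 normalised counts in C3H injured and 7404 to 17872 in C3H uninjured libraries, and its part in these values was not tested.

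Outside the 3 lists, Kcnj15 had the second largest increase. It encodes Kir4.2, an inward rectifier known from kidney, and had 1427 and 929 normalised counts in C3H injured libraries and 60.4, 25.1 and 60.4 in C3H uninjured libraries, a change of 4.64 (SE 0.42, adjusted p = 3.46e-05). Kcnj14 (Kir2.4) went the other way, with 621 and 165 in C3H injured and 1198, 559 and 1598 in C3H uninjured libraries. Injured library 1 lies above uninjured library 2, so the groups overlap, and the change of -1.67 (SE 0.55, adjusted p = 0.0383) was -0.72 without C3H injured library 2. The call was lost without B6 injured library 2 (0.0539), C3H injured library 2 (0.430), C3H uninjured library 1 (0.0788) or C3H uninjured library 3 (0.131), and in a fit of the C3H libraries alone.

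Channel genes best known from skeletal muscle or brain were in part also called. Cacna1s, the Cav1.1 pore of skeletal muscle, had 120 and 92.6 normalised counts in C3H injured and 349, 229 and 298 in C3H uninjured libraries, and Kcna7 (Kv1.7) had 131 and 96.1 against 378, 233 and 361. Both fell, with changes of -1.44 (SE 0.31, adjusted p = 0.00515) and -1.49 (SE 0.37, adjusted p = 0.0109), and both calls were lost without C3H injured library 2 (adjusted p = 0.0658 and 0.107). Skeletal muscle markers summed to 227 to 370 in C3H injured and 167 to 577 in C3H uninjured libraries, with a median change of 0.14. Of brain-type genes, Cacna1a (Cav2.1) had 157 and 281 against 88.1, 78.5 and 107 and rose by 1.20 (SE 0.35, adjusted p = 0.0215), or by 0.78 without C3H injured library 2, and the call was lost without C3H injured library 2 (0.247) or C3H uninjured library 2 (0.0537). Kcnd1 (Kv4.1) had 81.3 and 56.5 against 18.8, 6.28 and 25.8 and rose by 2.13 (SE 0.55, adjusted p = 0.0126), a call lost without C3H injured library 1 (0.0967) or C3H injured library 2 (0.0541). The calcium channel beta-3 gene Cacnb3 (1.21), the gamma-7 gene Cacng7 (1.85), Kcnj10 (Kir4.1, 2.01) and Scn2a1 (Nav1.2, 1.47) also passed, with adjusted p between 0.0372 and 0.0466. Each of these 4 calls was lost without either C3H injured library and without further single libraries. Quantile normalisation ended the calls of Cacna1a, Cacng7, Kcnj10 and Scn2a1, and a fit of the C3H libraries alone those of Cacnb3, Cacng7 and Scn2a1. Scn7a, the abundant sodium-sensing relative of the sodium channels, had 1113 and 1915 in C3H injured and 817, 1616 and 741 in C3H uninjured libraries and did not pass (adjusted p = 0.217).

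The same question was asked in B6. With limma 0 of 87 members passed, where 0.0136% of all genes did, and edgeR (0.0136%) and DESeq2 (0.0271%) called 0 as well. At an unadjusted p under 0.05 there were 14 members with limma (13.4% of all genes), 11 with edgeR (12.3%) and 12 with DESeq2 (14.5%). With the animal as a fixed or random block 0 passed (0.142% and 0.108% of all genes), and 22 members had an unadjusted p under 0.05 in each, against 23.8% (fixed) and 24.7% (random) of all genes. The median change of the cardiac list was -0.36, with 26 of 33 genes below 0 against 48.8% of all genes. Without B6 uninjured library 3 this median was -0.07, without B6 injured library 1 it was -0.20, and without B6 uninjured library 1 it was -0.55. The sum of cardiomyocyte markers was 865529 to 1101660 normalised counts in B6 injured against 1415080 to 1757900 in B6 uninjured libraries, with a median change of -0.74 over the 11 genes. The leukocyte list had 6 of 6 genes above 0 in B6, with a median change of 0.61. Macrophage markers had 11 of 11 above 0, with a median change of 0.71, and no gene of either list passed.

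Injured B6 libraries lay below all uninjured ones for 11 members, as for 7.69% of all genes tested, and above them for 4 members, as for 9.83%. Kcnip2 had 1829, 1356 and 1989.9 normalised counts in B6 injured and 2410.2, 2891 and 2839 in B6 uninjured libraries, a change of -0.67 (95% interval -1.14 to -0.20, adjusted p = 0.364). Kcne1 had 56.3, 47.9 and 30.9 in B6 injured and 106, 220 and 123 in B6 uninjured libraries, and its change of -1.68 (95% interval -2.45 to -0.90, adjusted p = 0.364) was the largest decrease among the cardiac genes in B6. Kcnj3 had 787, 772 and 861 against 1071, 1632 and 1579 and a change of -0.80 (95% interval -1.25 to -0.35, adjusted p = 0.364), and Kcnj11 had 1369.8, 1526 and 1952 against 2109.6, 2360.0 and 3126 and a change of -0.64 (95% interval -1.12 to -0.17, adjusted p = 0.364). In these 4 genes the groups do not overlap, so that all 3 animals necessarily had less in the injured region. The other members that lay below were Kcnj5, Kcnj12, Kcnn2, Kcnq1, Kcng2, Kcnip1 and Kcnd3os, and those that lay above were Cacnb3, Kcnab1, Kcnk13 and Scn3a. The injured region was lower in 3 of 3 animals for 24 members (24.2% of all genes) and higher in 3 of 3 for 16 (23.0%).

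Some transcripts varied widely between B6 libraries. Cacna1c had 1634, 2643 and 3964 normalised counts in B6 injured and 2368, 2482 and 5148 in B6 uninjured libraries, so that B6 uninjured library 3 stood above every other B6 library. Scn4b had 646, 501 and 1171 in B6 injured and 682, 740 and 1776 in B6 uninjured libraries, with the same library highest. Cacna1c changed by -0.27 and was lower in the injured region of 2 of 3 animals, and Scn4b changed by -0.41 and was lower in 3 of 3. Neither passed in B6, with or without the animal as a block, and each changed sign when 1 library was left out, which breaks a pair. Across 54 members with a mean of at least 50, the deviation of a library from the mean of its own group was related to exon length. Spearman's rho was -0.47 in B6 injured library 1, 0.30 in B6 injured library 3 and -0.44 in C3H uninjured library 3, and between -0.23 and 0.19 in the others. Deviations within a group hold no difference between regions or strains. These genes share libraries and are not independent, and the part of length in the changes was not tested.

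Whether the injury effect differed between the strains was tested as the effect in C3H minus that in B6. For 3 of 87 members it did, against 1.57% of all genes. All 3 had the higher effect in C3H (1.5% of all genes). For Kcnj15, B6 libraries had 572, 419 and 412 normalised counts in injured and 476, 234 and 246 in uninjured regions, so the effect was 4.64 in C3H and 0.61 in B6, a difference of 4.03 (SE 0.56, adjusted p = 0.00557). Kcnn4 had 63.6, 92.7 and 80.8 in B6 injured and 73.4, 49.8 and 33 in B6 uninjured libraries, with a difference of 3.91 (SE 0.67, adjusted p = 0.0147). Kcnab2 had 137, 181 and 191 against 153, 91.2 and 96.6 in B6, with a difference of 1.98 (SE 0.41, adjusted p = 0.0333). The Kcnj15 call held without each library in turn, the Kcnn4 call was lost without B6 uninjured library 1 (0.0523) or C3H injured library 2 (0.133), and the Kcnab2 call without B6 injured library 1 (0.0949), B6 injured library 2 (0.0722), B6 injured library 3 (0.0685), B6 uninjured library 1 (0.0842), C3H injured library 2 (0.296), C3H uninjured library 2 (0.0558) or C3H uninjured library 3 (0.0879).

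The promoters of Kcnj15 and Kcnn4 are printed because these genes had the largest differences of the injury effect between the strains. They are the 250 bases before the RefSeq start in build GRCm38.p6, on the plus strand, at chr16:95257308-95257557 and chr7:24370013-24370262, and they are B6 sequence. Capitals mark a match to the T-box motif AGGTGTG, which begins 198 bases before the start of Kcnn4.
Kcnj15: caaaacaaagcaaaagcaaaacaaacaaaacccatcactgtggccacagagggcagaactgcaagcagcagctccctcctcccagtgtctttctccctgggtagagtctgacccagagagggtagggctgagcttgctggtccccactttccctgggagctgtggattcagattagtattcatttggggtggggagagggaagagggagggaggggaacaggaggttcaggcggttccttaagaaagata
Kcnn4: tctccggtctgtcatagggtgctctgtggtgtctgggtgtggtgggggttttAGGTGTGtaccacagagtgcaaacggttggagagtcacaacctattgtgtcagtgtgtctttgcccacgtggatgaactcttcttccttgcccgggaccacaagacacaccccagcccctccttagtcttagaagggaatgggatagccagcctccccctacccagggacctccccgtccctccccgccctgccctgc
Promoters were found for 67 of 94 members, and 6 motifs were searched on both strands. These were AP-1 (TGANTCA, held by 6.75% of 32851 mouse promoters of this length), PU.1 (GAGGAAG, 10.6%), a GATA factor motif with the letters AGATAA (9.99%), a MEF2 core of CTA, any 4 bases and TAG (3.20%), T-box (AGGTGTG, 5.10%) and an Iroquois palindrome (ACANNTGT, 6.31%). Of 12 risen C3H members with a promoter 2 held the T-box letters and 0 any of the other motifs. Of 11 fallen members 1 held the T-box letters, 1 the Iroquois letters and 0 the others. Kcnn4 and Kcnj3 held 1 match each, so no matches overlapped.

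Fits that blocked on the animal counted more differences, 7 members as a fixed term (3.29% of all genes) and 10 as a random term (5.27%), and in each fit Kcnj15, Kcnn4 and Kcnab2 were among them. With the fixed term 5 were higher (2.96% of all genes) and 2 lower (0.332%). Both blocked fits added Kcnk13 (2.15 without the block, adjusted p = 0.0663, and 0.0289 fixed or 0.0100 random), Kcnma1 (3.48, adjusted p = 0.0714, and 0.0447 or 0.0182) and Kcnk3 (-1.18, adjusted p = 0.145, and 0.0429 or 0.0250). The fixed block also added Hcn2 (adjusted p = 0.0419). The random block also added Kcnip2 (0.0198), Kcng2 (0.0372), Kcnj8 (0.0390) and Kcnj12 (0.0440), each with a lower value in C3H. The unblocked difference of Kcnip2 was -1.32 (95% interval -2.02 to -0.61, adjusted p = 0.0719). The 3 genes that passed without the block are not on the cardiac list. The median difference of that list was -0.60 against -0.02 for all genes, and 27 genes were below 0 against 51.3% of all genes. Leaving out C3H injured library 2 gave a median of -0.38.

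Between the strains, uninjured regions differed for 6 of 87 members, against 3.1% of all genes, 4 of them higher in C3H (1.32%) and 2 lower (1.79%). Kcnj14 had the largest difference: 1198, 559 and 1598 normalised counts in C3H uninjured libraries and 39, 20.7 and 24.7 in B6 uninjured libraries, a change of 5.18 (SE 0.50, adjusted p = 0.000136). Kcnj15 was lower, with 60.4, 25.1 and 60.4 in C3H uninjured and 476, 234 and 246 in B6 uninjured libraries and a change of -2.71 (SE 0.38, adjusted p = 0.00207). Both calls held without each library. Kcnq5 (Kv7.5) was higher in C3H, with 66.3, 58.6 and 24.9 against 3.55, 10.4 and 5.89 in B6, a change of 2.73 (SE 0.53, adjusted p = 0.0159) that was lost without B6 uninjured library 1 (0.0733), C3H uninjured library 1 (0.0597) or C3H uninjured library 2 (0.0608). Cacnb1, for the beta-1 subunit of calcium channels, had 287, 261 and 327 against 162, 112 and 151 and a change of 1.05 (SE 0.22, adjusted p = 0.0251), lost without B6 uninjured library 2 (0.0922), C3H uninjured library 1 (0.0602) or C3H uninjured library 3 (0.102). Cacna1g was higher by 1.28 (SE 0.28, adjusted p = 0.0306), with 701, 552 and 400 against 188, 265 and 213 in B6, and was lost without B6 injured library 2 (0.0553), B6 uninjured library 1 (0.134), B6 uninjured library 2 (0.0555), C3H uninjured library 1 (0.0950) or C3H uninjured library 2 (0.0803). Kcne4 was lower by -1.27 (SE 0.30, adjusted p = 0.0427), with 117, 137 and 85.2 against 414, 261 and 181 in B6, and was lost in 10 of 11 fits that each left out 1 library (adjusted p up to 0.167) and with quantile normalisation. The calls of Kcnq5, Cacnb1, Cacna1g and Kcne4 were also lost in a fit of the uninjured libraries alone.

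In injured regions 11 members differed, against 7.06% of all genes, 6 of them higher in C3H (3.72%) and 5 lower (3.34%). Kcnj14 was again higher, with 621 and 165 normalised counts in C3H injured and 37.5, 29.1 and 24.1 in B6 injured libraries, a change of 3.39 (SE 0.55, adjusted p = 0.00446) that held without each library. Kcnn4 (3.02 (SE 0.50, adjusted p = 0.00487)) and Kcnab2 (1.98 (SE 0.31, adjusted p = 0.00339)) were higher, with no overlap, and both were lost without C3H injured library 2 (adjusted p = 0.0925 and 0.0965). Scn2b (2.80 (SE 0.66, adjusted p = 0.0277)), Cacna1a (1.49 (SE 0.35, adjusted p = 0.0261)) and the low-count beta subunit gene Kcne3 (3.63 (SE 0.97, adjusted p = 0.0442)) were higher too, and the last of these was lost in 10 of 11 fits that each left out 1 library. The 5 lower ones were Kcnj12 (-1.16 (SE 0.22, adjusted p = 0.0117)), with 239 and 225 in C3H injured and 484, 533 and 541 in B6 injured libraries, Kcnj8 (-1.14 (SE 0.22, adjusted p = 0.0108)), Kcnj3 (-1.11 (SE 0.23, adjusted p = 0.0157)), Kcnj11 (-0.98 (SE 0.24, adjusted p = 0.0346)) and Kcnn2 (-1.43 (SE 0.31, adjusted p = 0.0205)). Without C3H injured library 2 the count was 1 member (0.682% of all genes), Kcnj14. Without B6 injured library 1 it was 5 and without B6 injured library 2 it was 6. Both of these fits lost Scn2b, Cacna1a, Kcne3, Kcnj3 and Kcnj11, and the first also lost Kcnn2. Kcnj11 was lost without B6 injured library 3 as well. The fit without C3H injured library 1 lost Kcnj12, Kcnj11, Scn2b and Kcne3, with a change of -1.20 for Kcnj12.

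Several partner genes of the channels were lower in injured C3H regions. Of 23 genes tested, chosen as auxiliary proteins, pumps, anchors and transcription factors that act with these channels, 11 fell (15.4% of all genes) and 1 rose (15.3%) in C3H. With the animal as a fixed block 14 of them fell, in a fit where 34.8% of all genes passed either way. In B6 the median change of these partner genes was -0.29. Irx3, which encodes an Iroquois transcription factor of the ventricular conduction system, had 350 and 325 normalised counts in C3H injured and 1271, 1134 and 1488 in C3H uninjured libraries and changed by -1.93 (SE 0.24, adjusted p = 0.000239). Cav3, for caveolin-3, which scaffolds channels in caveolae, had 557 and 467 against 1576, 1990.2 and 2379.7 and changed by -1.94 (SE 0.31, adjusted p = 0.00112). Fxyd1, for phospholemman, the regulator of the sodium pump, had 2406 and 1731 against 6047, 7833 and 9744 and changed by -1.92 (SE 0.34, adjusted p = 0.00184). None of these groups overlapped. Gem, a small GTPase that inhibits L-type channels, had 274 and 292 against 121, 174 and 163 and rose by 0.90 (SE 0.28, adjusted p = 0.0299). Irx5, a repressor of Kcnd2 in mouse heart, had 53, 40.8 and 24.9 in B6 injured and 187, 257 and 153 in B6 uninjured libraries, a change of -2.33 (SE 0.33, adjusted p = 0.0584) that passed with the animal as a block (adjusted p = 0.00537 fixed and 0.00292 random). In C3H it changed by -1.71 (SE 0.37, adjusted p = 0.00499).

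**Figure D4:**
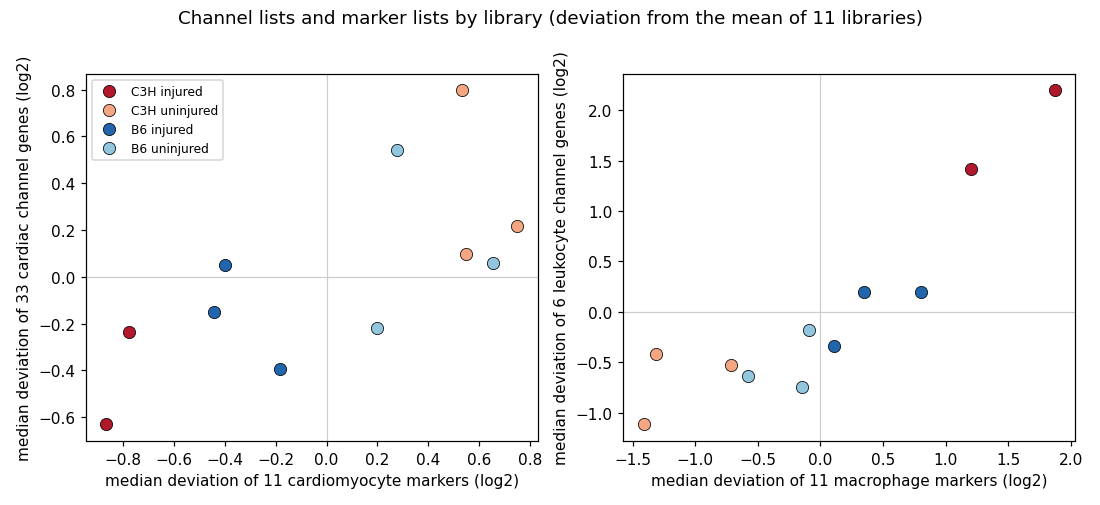
Median deviation (log2, from the mean of the 11 libraries) of the channel lists (y axes) against that of marker lists (x axes) in each library; left, 33 cardiac channel genes against 11 cardiomyocyte markers, and right, 6 leukocyte channel genes against 11 macrophage markers. The C3H injured libraries lie lowest on the left x axis (-0.78 and -0.87) and highest on both axes on the right.

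By library, the median deviation of the cardiac channel list was -0.24 and -0.63 in the C3H injured libraries, 0.80, 0.097 and 0.22 in C3H uninjured, -0.39, -0.15 and 0.052 in B6 injured, and -0.22, 0.058 and 0.54 in B6 uninjured libraries. Cardiomyocyte markers stood at -0.78 and -0.87 in C3H injured, 0.53, 0.55 and 0.75 in C3H uninjured, -0.18, -0.44 and -0.40 in B6 injured, and 0.20, 0.65 and 0.28 in B6 uninjured libraries. The markers part injured from uninjured libraries in both strains, whereas the channel list overlaps between regions in B6. The leukocyte channel list stood at 1.41 and 2.20 in C3H injured libraries and between -1.11 and 0.20 in all others, and macrophage markers at 1.21 and 1.87 and between -1.41 and 0.80. Within B6 the leukocyte list stood at -0.34, 0.20 and 0.20 in injured and -0.18, -0.74 and -0.64 in uninjured libraries, which overlap. Macrophage markers stood at 0.11, 0.80 and 0.35 in B6 injured and -0.092, -0.15 and -0.58 in B6 uninjured libraries, which do not overlap. Whether channel transcripts changed beyond the marker shift was not tested.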

How the data were processed

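Gene-level values of 11 libraries were used. The deposited signal is read counts per gene divided by 1 size factor per library. The submitters' processing notes name TopHat2 2.0.11, HTSeq 0.6.1, DESeq and build mm9; the sources used here do not give the annotation, strandedness, filters or version of DESeq. In every library 100% of the values were whole multiples of 1 step (tolerance 1e-06), which gave 9699985 to 22138459 reads; 0 columns belonged to other series. Build mm9 is of B6, so C3H reads over variants may be undercounted.

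Log2(value + 1) was fitted for the 14751 genes that reached 10 in 2 or more libraries with limma 3.58.1 in R 4.3.3, with 4 group means, a mean-variance trend and Benjamini-Hochberg adjustment over all genes tested. Tests are two-sided at 0.05, and p-values measure the spread between libraries of different animals within a group. The main fit has no term for the animal, so it does not use the pairing of regions from 1 heart. The scale understates changes of low genes. Alternatives were pseudocounts of 0.5 and 8, no filter, quantile normalisation, only the groups compared, edgeR 4.0.16 and DESeq2 1.42.0 on recovered reads, the animal as a block, and each library left out. The labels name the mouse of each region, so regions of a number within a strain are 1 heart; their deviations correlated at 0.305 and 0.575 in C3H and 0.276, -0.014 and 0.524 in B6. The scripts were tested on simulated data.

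Members and lists were chosen with earlier results of these data known. Named were cardiac members with a mean of at least 50, leukocyte and smooth muscle members with a mean of at least 20, the 4 largest increases and decreases past the threshold in each comparison, every member past it for the difference of the injury effects, and up to 3 partners each way; others were named after their values were seen. Some members are not reported by name here and stay in the fits and counts. Of 7 smooth muscle symbols 6 and of 25 partner symbols 23 were analysed here. Exon lengths and overlaps came from GENCODE M21 (GRCm38) and promoters from RefSeq (GRCm38.p6).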

Additional observations from a re-analysis of the deposited data

Results flagged for a closer look

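The injury effect of 3 channel genes differed between the strains by a test of the difference itself, C3H minus B6 (limma, adjusted over 14751 genes). The difference was 4.03 for Kcnj15 (SE 0.56, adjusted p = 0.00557), which was higher in 2 of 2 C3H and 3 of 3 B6 animals in the injured region. It was 3.91 for Kcnn4 (SE 0.67, adjusted p = 0.0147) and 1.98 for Kcnab2 (SE 0.41, adjusted p = 0.0333), both higher in 2 of 2 C3H and 2 of 3 B6 animals. For Kcnj15 the alternatives gave adjusted p between 9.23e-10 (DESeq2) and 0.0476, for Kcnn4 up to 0.133 and for Kcnab2 up to 0.296 (both without C3H injured library 2). In limma over all 11 libraries, Kcnj15 also passed between the strains in uninjured regions, where it was lower in C3H, but not in injured regions. Kcnn4 and Kcnab2 passed in injured regions only. Macrophage markers had higher injury effects in C3H, with 4 of 11 past the threshold (1.5% of all genes) and a median difference of 2.03. In uninjured regions all 11 were lower in C3H, 3 of them past the threshold, with a median of -0.88. In injured regions 9 of 11 were higher, with a median of 1.01. The part of these markers was not tested. Strain and sex cannot be told apart here.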

How the results depend on the processing

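Of 44 effects of named genes past the threshold 20 kept it under every alternative run and 0 reversed, and without C3H injured library 2 alone 21 of 44 fell short. Counts of members past the threshold ranged from 16 to 37 for injury in C3H when 1 library was left out, from 1 to 4 for the difference of the injury effects, from 1 to 12 between strains in injured and from 2 to 11 in uninjured regions. For the difference the count was 7 with the animal as a fixed replicate block, 10 with it as a random block and 9 with DESeq2 (4.89% of all genes). Between strains in injured regions it was 17 with only the groups compared (10.6%) and 17 with DESeq2 (13.7%), and in uninjured regions 3 (1.29%) and 12 (6.21%). The cause was not tested. Paired fits in C3H counted 39 (fixed, 34.8% of all genes) and 44 (random, 41.8%) against 36: beside those in the report, they added Kcnn1 and Kcnv2 in both, Scn4a in the fixed and Kcna4 in the random fit, and the fixed block lost Kcna3, Kcnj10 and Scn2a1. They changed no other member's call for injury within a strain, the random block changed none between strains, and a fixed block cannot be fitted there since each animal has 1 strain. Effects not past the threshold changed sign in 9 of 50 cases. With 1 library left out, those in B6 ranged from -0.58 to 0.088 for Cacna1c, -0.35 to 0.31 for Hcn2, -0.68 to 1.45 for Hcn4, -0.55 to 0.040 for Kcnd2, -0.063 to 0.38 for Kcnj14, -0.084 to 0.15 for Kcnk2, -0.91 to 0.22 for Scn10a and -0.76 to 0.027 for Scn4b. In C3H the range was -0.48 to 0.072 for Kcnmb1. Quantile normalisation gave -0.068 for Hcn4, -0.16 for Kcnj14 and -0.15 for Kcnk2 in B6. Depth limits the low members, such as Kcna3 and Kcna4, with under 100 reads per group.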

Other observations

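Kcnq3, Cacng6, Scn4a and Kcnv2 are on none of the lists of cardiac, leukocyte or smooth muscle channels. Kcnq3, a neuronal Kv7 channel gene that was not tested for low counts, had 39 reads over the C3H injured libraries and 3, 1 and 1 over the C3H uninjured, B6 injured and B6 uninjured libraries. Cacng6, a calcium channel gamma subunit gene of striated muscle, had 76.1 and 62.9 normalised counts in C3H injured and 252, 173 and 213 in C3H uninjured libraries, against 0, 13.4 and 31.8 in B6 injured and 9.47, 12.4 and 31.8 in B6 uninjured libraries. All 5 C3H libraries thus lay above all 6 B6 libraries. Scn4a, the sodium channel gene of skeletal muscle, had 218 and 52.3 in C3H injured, 556, 81.7 and 257 in C3H uninjured, 159, 257 and 439 in B6 injured and 175, 170 and 761 in B6 uninjured libraries. Its range within each group was wide, and C3H library 1 and B6 library 3 were the highest in the uninjured regions. Kcnv2, a silent Kv subunit gene, had 63.1 and 73.5 in C3H injured and 256, 205 and 131 in C3H uninjured libraries, a change of -1.47 (SE 0.52, adjusted p = 0.0502) at the edge of the threshold that passed with the animal as a block (adjusted p = 0.00268 fixed and 0.00697 random).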
